A study of Mus musculus with 8 samples.

Results

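The 10 immediate early genes Egr1, Egr2, Egr3, Fos, Fosb, Fosl1, Fosl2, Jun, Junb and Ier2 were followed by symbol in a table of 54532 gene entries from cultured mouse lung fibroblasts. All 10 were listed once and all 10 were among the 14150 genes with enough counts to be tested. The cells were primary lung fibroblasts (pFBs) of female mice on a C57/black strain background. The HOMO group (4 libraries) came from homozygous transgenic mice that carry human IGFBP5 (hIGFBP5), a secreted insulin-like growth factor binding protein, knocked in under the Ef1a1 promoter, which drives expression in most cell types. The WT group (4 libraries) came from wild type mice. Both groups were grown in complete medium, used at passages 3 to 7 and given no treatment. The study's methods describe plating in serum-containing medium and harvest of medium and lysates some days later, and whether the RNA was taken at that time is not stated there. The mice's age and number are not given in the sources used here. The study's text speaks of the HOMO libraries as mice, but the labels do not say that the libraries of a group came from separate mice or cultures, so p-values measure only the spread between libraries.

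Immediate early genes are transcribed within minutes of a stimulus such as serum or a growth factor, without new protein synthesis, and their mRNAs decay quickly. Serum response factor with its ternary complex partners acts at CArG boxes, and CREB acts at cyclic AMP response elements built on TGACG. Egr1, Egr2 and Egr3 are zinc finger factors that bind GC-rich DNA. FOS and JUN proteins are leucine zipper factors that pair to form AP-1, which binds TGANTCA. In fibroblasts both families are known for linking growth factor signals to cell cycle entry and to matrix and protease genes.

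Library depth ran from 17236521 to 31987790 counts. WT1 with WT2, HOMO1 with HOMO2, and HOMO3 with HOMO4 were each far more alike than other libraries of their genotype, with a biological coefficient of variation of 4.71% to 7.65% over genes against 30.0% to 56.4% for the 9 other pairs within a genotype. Their counts differed by 4.07 to 8.39 times the sampling variance (chi-square per degree of freedom), which is more than counting error. Each library was therefore counted separately, although repeat preparations of 1 culture would also differ by more than counting error, and n = 4 may overstate the number of independent samples. All 9 fibroblast markers were tested, whereas the summed level of 9 epithelial markers was at most 18.2 CPM (counts scaled to a common library size) and that of 6 endothelial markers at most 8.09 CPM. Mouse Igfbp5, the endogenous counterpart of the transgene, stood at 7.31, 9.65, 409 and 4.34 CPM in WT1 to WT4 and at 1.07, 1.12, 1.88 and 2.86 CPM in HOMO1 to HOMO4. In the edgeR test described below mouse Igfbp5 was lower in HOMO (log2 fold change of -5.97, adjusted p = 0.0469), with WT3 far above the other WT libraries. The study states, with data not shown, that it was undetectable in both groups, whereas each library held counts of it here. The human transgene was not analysed here.

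The promoters are shown because elements by which these genes are known to be induced can lie there. Elements more than 250 bases before the start fall outside the stretches searched, so a missing match does not mean that a gene lacks the element. RefSeq promoter windows (GRCm38.p6) were matched for 6 of the 10 genes, and the 250 bases before the start are printed 5′ to 3′ for 5 of them. Egr2 had windows for 5 annotated starts, of which the third is printed because it holds both a CArG box and TGACG. Egr1, Egr3, Fosl1 and Ier2 had none. Capitals mark matches on either strand to the CArG box, the cyclic AMP response element core TGACG, which reads CGTCA on the other strand, the AP-1 site TGANTCA, its 8-letter form TGANNTCA, or the EGR site GCGNGGGCG.
Egr2, chr10:67537619-67537868, + strand: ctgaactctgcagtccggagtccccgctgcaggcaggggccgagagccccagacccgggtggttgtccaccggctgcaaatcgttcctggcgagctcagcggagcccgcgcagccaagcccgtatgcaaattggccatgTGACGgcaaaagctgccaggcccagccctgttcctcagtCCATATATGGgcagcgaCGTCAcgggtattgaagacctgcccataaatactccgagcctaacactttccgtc
Fos, chr12:85473640-85473889, + strand: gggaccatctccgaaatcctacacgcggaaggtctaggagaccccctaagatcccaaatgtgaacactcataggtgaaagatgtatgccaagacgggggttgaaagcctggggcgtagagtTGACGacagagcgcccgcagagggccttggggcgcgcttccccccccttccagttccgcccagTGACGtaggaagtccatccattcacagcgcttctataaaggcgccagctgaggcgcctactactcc
Fosb, chr7:19310046-19310295, - strand: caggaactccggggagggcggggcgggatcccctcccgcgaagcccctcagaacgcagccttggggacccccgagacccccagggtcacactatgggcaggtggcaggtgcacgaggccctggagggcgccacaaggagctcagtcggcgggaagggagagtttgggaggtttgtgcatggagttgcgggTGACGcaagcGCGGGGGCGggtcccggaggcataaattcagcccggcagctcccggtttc
Jun, chr4:95052223-95052472, - strand: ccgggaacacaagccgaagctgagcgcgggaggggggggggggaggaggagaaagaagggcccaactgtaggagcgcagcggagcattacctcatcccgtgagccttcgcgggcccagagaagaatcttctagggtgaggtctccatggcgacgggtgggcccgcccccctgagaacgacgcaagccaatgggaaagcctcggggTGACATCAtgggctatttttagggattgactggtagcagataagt
Junb, chr8:84978749-84978998, - strand: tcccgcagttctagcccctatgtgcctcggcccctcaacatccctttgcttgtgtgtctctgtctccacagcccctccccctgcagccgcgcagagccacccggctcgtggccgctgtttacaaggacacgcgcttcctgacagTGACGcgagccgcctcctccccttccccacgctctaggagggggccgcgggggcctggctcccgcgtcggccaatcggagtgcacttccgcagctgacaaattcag

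In the printed Egr2 window a CArG box lay 72 to 63 bases before the start, between a TGACG at 111 to 107 and a CGTCA at 55 to 51. Of the other Egr2 windows, the fourth and the fifth overlap it and hold the same matches, the second holds a different CArG box and no TGACG, and the first holds none of the motifs. The Fos window held TGACG at 129 to 125 and at 66 to 62 bases before the start. Fosb had TGACG at 60 to 56 followed by an EGR site at 50 to 42, Jun had TGANNTCA at 45 to 38, and Junb had TGACG at 106 to 102. Of 32851 windows of the same length, 1.47% held a CArG box, 17.8% TGACG, 11.9% TGANNTCA, 6.75% TGANTCA and 4.7% GCGNGGGCG. The strict TGANTCA was in none of the windows matched for these genes, which says only that those letters are not there. The Fosl2 window, which lies in an annotated exon and is not printed, held GCGNGGGCG at 79 to 71 bases.

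The comparison of HOMO with WT asks whether fibroblasts that express hIGFBP5 hold different mRNA levels of these factors. None of the 10 genes passed the test (edgeR's quasi-likelihood F test, Benjamini-Hochberg adjusted p below 0.05 with a log2 fold change beyond 0.6 in either direction), where 12.1% of the 14150 tested genes did, 841 (5.94%) higher and 875 (6.18%) lower in HOMO. Adjusted p ran from 0.101 to 0.961. Unadjusted p was under 0.05 for 3 of the 10 (Egr1, Junb and Ier2, all higher in HOMO), beside 32.3% of all tested genes. DESeq2 called 1 of the 10 and 16.5% of the 17610 genes to which it gave an adjusted p. limma-voom with sample weights called 2 of the 10 and 25.3% of all tested genes. With the near-identical libraries summed into 1 each, 0 of 16130 genes passed in edgeR, so the calls over all genes rest on counting those libraries separately. Without WT1 and WT2, 1 of the 10 and 22% of all genes were called, and without HOMO3 and HOMO4 1 of the 10 and 6.02%. None of the 10 was called without HOMO1 and HOMO2 (0.514% of all genes), with the replicate number as a block (6.69%) or with chromosome-wise scaling (10.5%). The log2 fold change was above 0 for 7 genes and below 0 for 3, with a median of 0.35 against -0.04 over all tested genes. The WT and HOMO values overlapped for every one of the 10, whereas 27.3% of tested genes had no overlap.

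The fitted changes were not small: the median absolute log2 fold change was 0.70 for the 10 genes and 0.41 for all tested genes. Their standard errors were larger as well, with a median of 0.63 against 0.26. Levels below are CPM after TMM scaling unless stated otherwise, and 3 counts in a library amount to 0.0908 to 0.172 CPM.

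**Figure D1:**
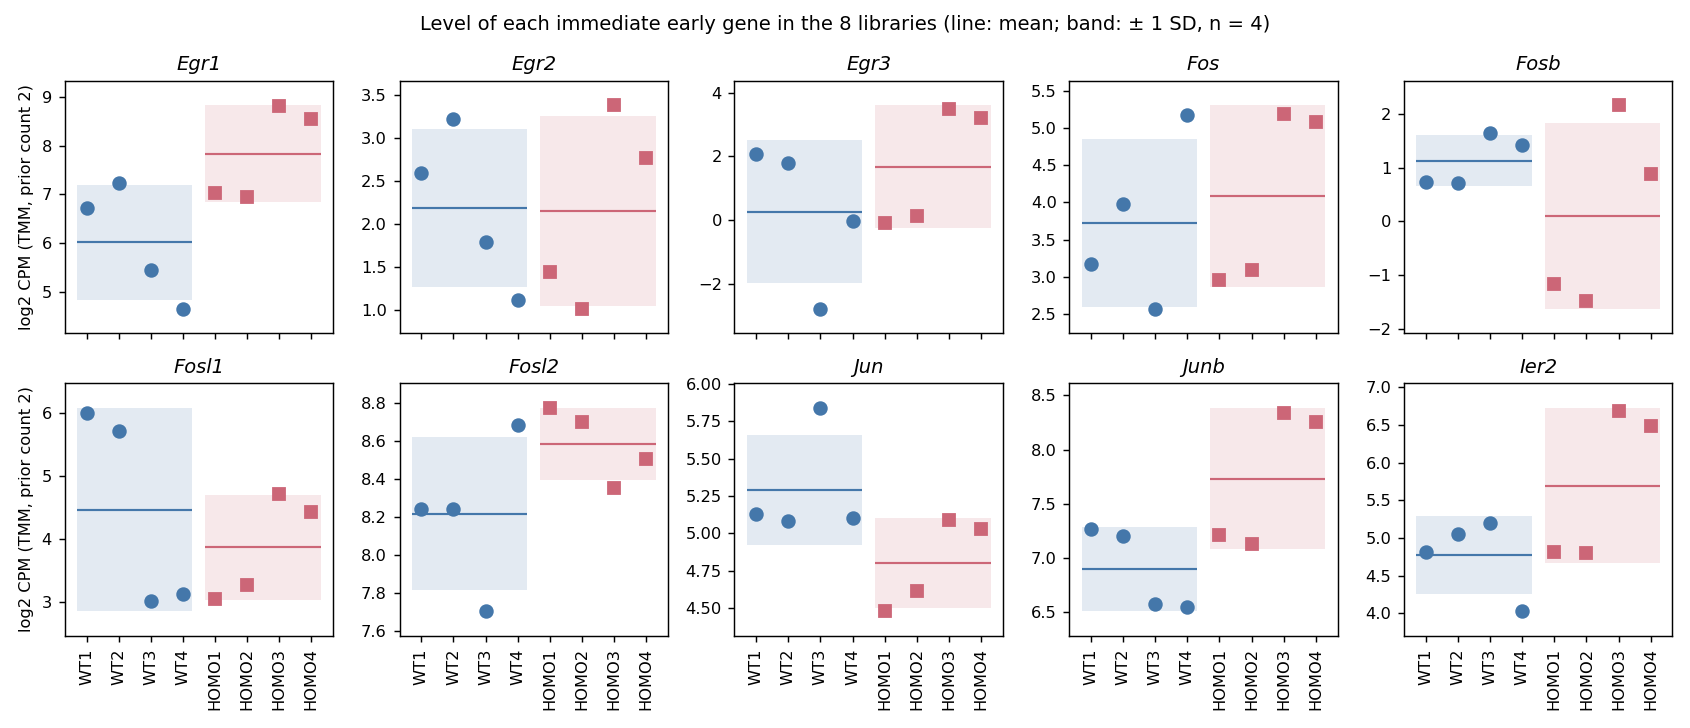
Level of each of the 10 immediate early genes in each library, as CPM on a log axis, with WT and HOMO libraries in separate colours. In HOMO, libraries 3 and 4 sit above 1 and 2 for every gene but Fosl2, and within WT the order of the libraries differs from gene to gene.

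Egr1, the best known EGR factor and a direct activator of many growth and matrix genes, was at 106 CPM in WT1, 149.7 in WT2, 43.7 in WT3 and 25.2 in WT4. In HOMO1 to HOMO4 it was at 129.6, 123, 450 and 375.6 CPM. HOMO3 and HOMO4 lay above every WT library, while HOMO1 and HOMO2 lay between WT1 and WT2. The mean was 81.1 ± 57.3 CPM in WT and 269.6 ± 168 CPM in HOMO (SD, n = 4), a log2 fold change of 1.73 ± 0.64 (SE) with an edgeR adjusted p of 0.103. DESeq2 gave 1.72 with an adjusted p of 0.0256. The study, which used DESeq2, reports Egr1 as upregulated, so for this gene the call depends on the test used. With WT1 and WT2 left out the edgeR value was 2.98 (adjusted p = 0.0289) and with HOMO3 and HOMO4 left out it was 0.65.

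Egr2, a paralog of Egr1 known from myelination and immune tolerance, was at 5.96, 9.27, 3.39 and 2.09 CPM in WT1 to WT4 and at 2.63, 1.94, 10.3 and 6.72 CPM in HOMO1 to HOMO4. The WT values filled nearly the whole range of the HOMO values, and the log2 fold change was 0.06 ± 0.62 (SE, adjusted p = 0.961). Its CArG box printed above is of the kind that serum response factor binds.

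Egr3, a paralog of Egr1 known from muscle spindle and lymphoid cells, had few counts. They were 74, 79, 1 and 23 in WT1 to WT4 and 19, 33, 217 and 181 in HOMO1 to HOMO4, or 4.16, 3.39, 0.0574 and 0.89 CPM in WT and 0.85, 1.00, 10.999 and 9.07 CPM in HOMO. HOMO3 and HOMO4 were the highest, and HOMO1 and HOMO2 were below WT1 and WT2. The log2 fold change was 1.36 ± 1.12 (SE), the widest error of the 10 (adjusted p = 0.433). Without HOMO3 and HOMO4 it was -1.19. Egr4, the remaining paralog, was singled out after its values were seen: it was not tested and had 35 and 17 counts in HOMO3 and HOMO4 and 0 to 2 counts in each of the other libraries.

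Among the FOS proteins, Fos and Fosb carry a strong transactivation domain, and Fosl1 (FRA1) and Fosl2 (FRA2) lack it. Fos was at 8.95, 15.6, 5.85 and 35.9 CPM in WT1 to WT4 and at 7.67, 8.44, 36.4 and 33.8 CPM in HOMO1 to HOMO4. WT4 matched HOMO3 and HOMO4, and the other 5 libraries were at 15.6 CPM or less. HOMO against WT gave a log2 fold change of 0.37 ± 0.69 (SE, adjusted p = 0.746), and -1.04 without HOMO3 and HOMO4. In WT4 the genes of chromosome 12, where Fos lies, stood 0.65 higher in log2 than the mean of the other WT libraries at the median. With libraries scaled chromosome by chromosome the Fos log2 fold change was 0.26.

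Fosb, whose splice form delta-FosB is known as a long-lived product, was the lowest of the family. Its counts were 28, 36, 53 and 67 in WT1 to WT4 and 8, 9, 86 and 35 in HOMO1 to HOMO4, that is 1.58, 1.54, 3.04 and 2.59 CPM and 0.36, 0.27, 4.36 and 1.75 CPM. Both HOMO1 and HOMO2 were below every WT library, and HOMO3 was above every WT library. Over all 8 libraries the log2 fold change was -0.39 ± 0.80 (SE, adjusted p = 0.773). It was -2.78 and passed the test (adjusted p = 0.0392) without HOMO3 and HOMO4, and 0.49 without HOMO1 and HOMO2.

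Fosl1, the FOS family member tied most closely to sustained ERK signalling, was at 64.2, 52.7, 8.03 and 8.67 CPM in WT1 to WT4 and at 8.16, 9.62, 26.1 and 21.6 CPM in HOMO1 to HOMO4. Thus WT3, WT4, HOMO1 and HOMO2 shared a low level, HOMO3 and HOMO4 an intermediate one, and WT1 and WT2 were the highest. The log2 fold change was -1.03 ± 0.73 (SE, adjusted p = 0.361), and 0.97 without WT1 and WT2. limma-voom, which gave WT3 and WT4 low weights (0.0927 and 0.164, against 2.24 and 8.14 for WT1 and WT2), gave -1.67 with an adjusted p of 0.00699. Of the exon bases of Fosl1, 57.2% lie opposite Ccdc85b on the other strand, and the strand setting of the counting is not given, so reads of the pair may not be told apart. Ccdc85b itself was at 30.3 to 62.8 CPM in WT and 30.6 to 38.5 CPM in HOMO, with its highest level in WT3, where Fosl1 was lowest.

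Fosl2, studied for its part in lung and skin fibrosis, was the most even of the 10. It was at 302, 303, 208 and 411 CPM in WT1 to WT4 and at 438, 415, 327 and 363 CPM in HOMO1 to HOMO4. The mean was 306 ± 83.0 CPM in WT and 386 ± 50.2 CPM in HOMO (SD, n = 4), with a log2 fold change of 0.33 ± 0.21 (SE, adjusted p = 0.307). It was the one gene of the 10 with lower values in HOMO3 and HOMO4 than in HOMO1 and HOMO2.

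Jun, the main AP-1 activator of the JUN family, was at 34.9, 33.8, 57.2 and 34.3 CPM in WT1 to WT4 and at 22.2, 24.4, 33.9 and 32.6 CPM in HOMO1 to HOMO4. Apart from WT3 the WT libraries were close to each other, and HOMO3 overlapped them narrowly. In HOMO relative to WT the log2 fold change was -0.50 ± 0.23 (SE, adjusted p = 0.166). Its antisense neighbour Junos shares 7.28% of the Jun exon bases.

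Junb, a JUN protein that can restrain Jun and is itself a ready AP-1 partner, was at 154, 147, 95.2 and 93.3 CPM in WT1 to WT4 and at 148, 140, 323 and 305 CPM in HOMO1 to HOMO4. Again HOMO1 and HOMO2 lay with WT1 and WT2, and HOMO3 and HOMO4 were the highest. The log2 fold change was 0.90 ± 0.33 (SE) with an edgeR adjusted p of 0.101, the lowest of the 10. limma-voom gave 0.73 with an adjusted p of 0.0255. Prdx2, which lies opposite 7.52% of its exon bases, had a log2 fold change of -0.10.

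Ier2, a short nuclear protein induced with the AP-1 genes, was at 27.9, 33.2, 36.8 and 16.2 CPM in WT1 to WT4 and at 28.0, 27.7, 103 and 89.7 CPM in HOMO1 to HOMO4. HOMO1 and HOMO2 lay within the WT range and HOMO3 and HOMO4 far above it. Its log2 fold change was 1.12 ± 0.48 (SE, adjusted p = 0.148). It was -0.020 without HOMO3 and HOMO4 and 1.76 without HOMO1 and HOMO2.

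Junb and Ier2 lie on chromosome 8, whose 790 tested genes had a median log2 fold change of 0.37, with 135 higher and 17 lower in HOMO past the test. With libraries scaled chromosome by chromosome, Junb was at 0.53 (adjusted p = 0.315) and Ier2 at 0.76 (adjusted p = 0.324). Egr1 lies on chromosome 18, where the median of 377 tested genes was -0.31, and its chromosome-wise value was 1.94 (adjusted p = 0.0778). Fosb lies on chromosome 7, where the median of 1045 tested genes was -0.29, and its chromosome-wise value was -0.17 (adjusted p = 0.904). The part of these chromosome-wide shifts in the values of these genes was not tested further.

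**Figure D2:**
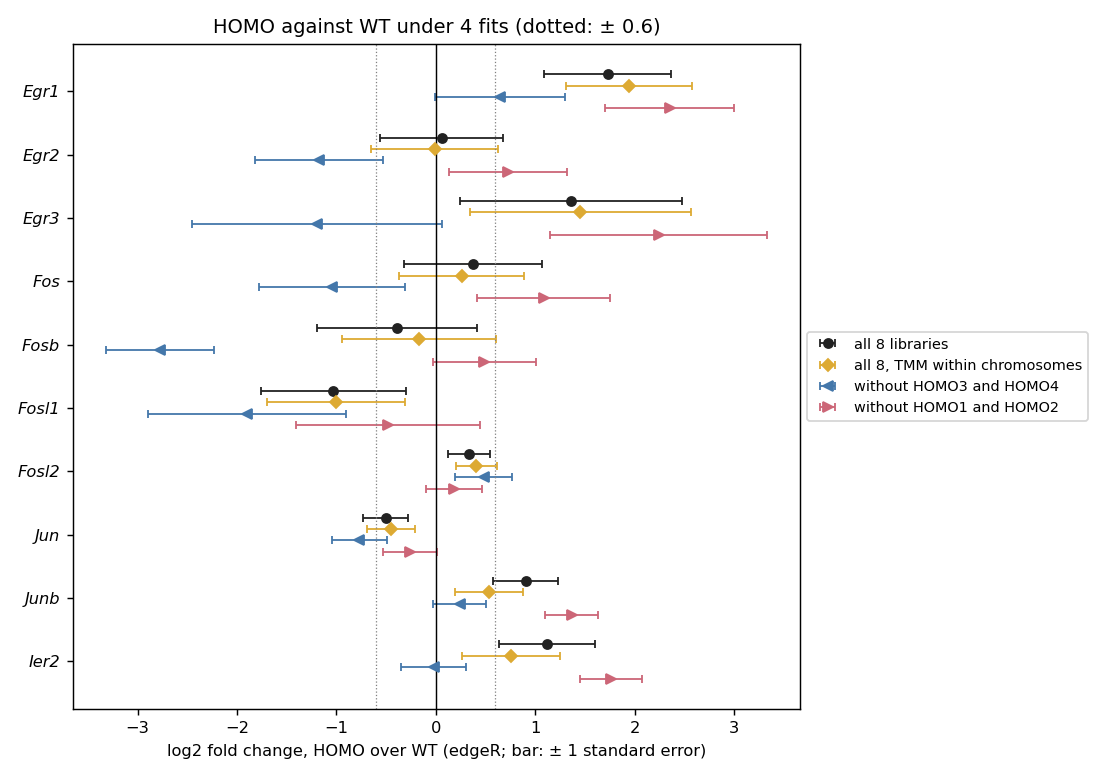
Log2 fold change of HOMO against WT for each of the 10 genes in the fit of all 8 libraries, with bars of 1 SE. Beside it are the values with chromosome-wise scaling, without HOMO3 and HOMO4, and without HOMO1 and HOMO2. The values of Egr2, Egr3, Fos, Fosb and Ier2 lie on both sides of 0 depending on the fit drawn. Those of Egr1, Fosl1, Fosl2, Jun and Junb lie on 1 side. Fosl1 changed direction only without WT1 and WT2, a fit that is not drawn.

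The HOMO libraries fell into a low and a high pair for most of these genes. The mean log2 level in HOMO3 and HOMO4 was more than 2-fold above that in HOMO1 and HOMO2 for 8 of the 10 genes, a difference that 8.78% of tested genes showed, and below it by as much for 0 of the 10 (2.39% of tested genes). For 9 of the 10 both libraries lay above both others, as for 37.2% of tested genes. The median log2 difference was 1.74 over the 10 genes and -0.00343 over all tested genes. These are descriptions with no test, since the pairs were formed from the likeness of the libraries, and whether the libraries of a pair share a source is not stated in the labels.

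Within HOMO the log2 difference was largest for Egr3 (3.32), Fosb (2.83) and Fos (2.11). Egr2 followed with 1.84, Ier2 with 1.78, Egr1 with 1.70, Fosl1 with 1.41 and Junb with 1.13. The pair of AP-1 genes with the steadiest levels stood apart, with 0.51 for Jun and -0.31 for Fosl2. In terms of rank, the difference of Egr3 was larger in size than that of 99.7% of tested genes and the difference of Fosl2 than that of 54.0%.

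The WT group was split too, but in another way. WT1 and WT2 were more than 2-fold above WT3 and WT4 in mean log2 level for 4 of the 10 genes, beside 11.1% of tested genes: Egr3 (3.34), Fosl1 (2.79), Egr1 (1.92) and Egr2 (1.45). None was more than 2-fold below, beside 9.91% of tested genes. Both WT1 and WT2 lay above both others for 5 of the 10, beside 28.6% of tested genes. Fos (-0.30), Fosb (-0.81) and Jun (-0.36) were lower in WT1 and WT2, and Fosl2 (0.05), Ier2 (0.32) and Junb (0.67) differed less than 2-fold. The EGR genes and Fosl1 were thus high in WT1, WT2, HOMO3 and HOMO4 relative to the rest of their own genotype, and Fos, Fosb and Ier2 were not high in WT1 and WT2.

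**Figure D3:**
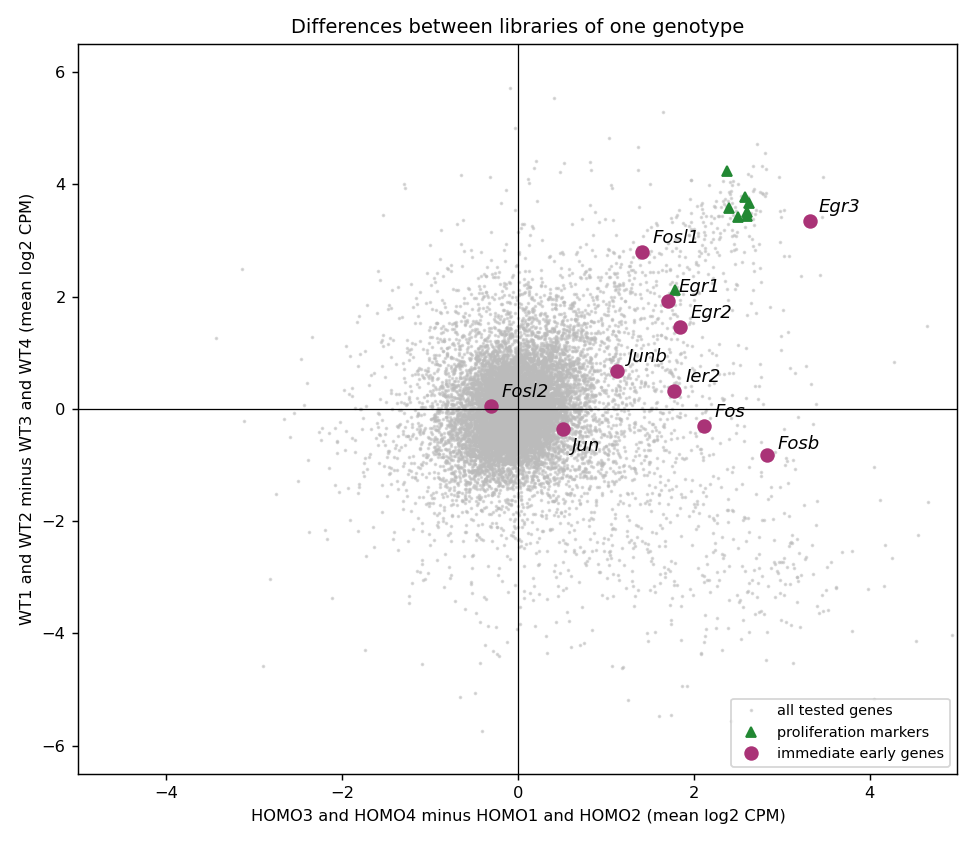
Difference in mean log2 CPM between HOMO3 with HOMO4 and HOMO1 with HOMO2, plotted against that between WT1 with WT2 and WT3 with WT4, for all tested genes (grey, 2 outside the axes). The 10 immediate early genes are labelled, and 8 proliferation markers are drawn as triangles. Egr1, Egr2, Egr3 and Fosl1 lie high on both axes, as do the proliferation markers. Fos, Fosb and Ier2 lie high within HOMO only among these contrasts.

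Proliferation markers were high in the same libraries as the EGR genes and Fosl1 within each genotype, and in WT they did not go with Fos, Fosb, Jun or Fosl2. The summed level of 8 markers, Mki67, Top2a and Ccnb1 among them, was 1134, 1008, 153 and 63.7 CPM in WT1 to WT4 and 163, 152, 851 and 772 CPM in HOMO1 to HOMO4. All 8 markers were more than 2-fold higher in HOMO3 and HOMO4 than in HOMO1 and HOMO2, beside 8.78% of tested genes. All 8 were also more than 2-fold higher in WT1 and WT2 than in WT3 and WT4, beside 11.1% of tested genes. The test of HOMO against WT was passed by 0 of the 8, beside 12.1% of tested genes. Macrophage markers (8 genes) summed to 131 to 1971 CPM in WT, with WT3 and WT4 at 1971 and 1151 CPM, and to 58.0 to 194 CPM in HOMO, and no marker was at 0 throughout. Of the 8, 0 passed the test of HOMO against WT, with a median log2 fold change of -2.22, and Lyz2 alone stood at 1707 CPM in WT3. Within HOMO, 7 of the 8 were more than 2-fold higher in HOMO3 and HOMO4, beside 8.78% of tested genes. Between genotypes, the fibroblast markers Pdgfrb and Vim were lower in HOMO, with log2 fold changes of -0.97 (adjusted p = 0.0251) and -0.65 (adjusted p = 0.0430), and the remaining 7 of 9 did not pass. Of 5 mesothelial markers 1 passed, the gene Wt1, with a log2 fold change of 3.36 (adjusted p = 0.0166), and of 3 epithelial markers tested 1 passed, Cdh1, with 2.77 (adjusted p = 0.0462) at a mean of 1.67 CPM in HOMO. Heat shock genes, which respond to cell stress, summed to 3895 to 4749 CPM in WT and 4380 to 4590 CPM in HOMO. Of 10 heat shock genes 2 passed the test, both lower in HOMO: the co-chaperones Bag3 (log2 fold change of -0.87, adjusted p = 0.00985) and Hsph1 (-0.67, adjusted p = 0.0279). The median of the 10 was -0.41. Within HOMO, 2 of the 10 were more than 2-fold higher in HOMO3 and HOMO4, beside 8.78% of tested genes. The marker and heat shock lists are short and hold few calls, where 12.1% of all tested genes were called. The part of proliferating cells, macrophages or other cell types in the levels of the 10 genes was not tested. In bulk RNA, more cells that express a gene and more mRNA in each cell cannot be told apart.

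Libraries that were otherwise nearly the same still differed in some of these genes. Between WT1 and WT2 the median absolute log2 difference over tested genes was 0.139, while Fos was 0.80 higher in WT2, Egr2 0.63 higher and Egr1 0.50 higher. The counts of Fos were 159 and 364. Between HOMO3 and HOMO4, with a median of 0.108, Fosb was at -1.27 and Egr2 at -0.62 in HOMO4 relative to HOMO3, the first on counts of 86 and 35. The difference of Fosb was larger in size than that of 99.0% of tested genes, many of which had more counts. Between HOMO1 and HOMO2, with a median of 0.0998, the largest differences were those of Egr2 (-0.43) and Fosb (-0.30), on 59 and 64 counts and on 8 and 9 counts.

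Levels of different genes were compared per kilobase of annotated exon. By the median over the 8 libraries Junb was highest with 64.1 CPM per kilobase, followed by Fosl2 with 35.6, Egr1 with 28.2 and Ier2 with 20.1. Jun (10.6), Fosl1 (7.67) and Fos (5.22 CPM per kilobase) were in the middle, and Egr2 (1.38), Egr3 (0.498) and Fosb (0.267) were lowest. The ranges of each neighbouring pair in this order overlapped over the libraries. Fos was above Egr2 in all 8 libraries, and Junb above Fosl2, Ier2 above Jun and Egr2 above Egr3 in 7. Egr1 was above Ier2 in 6 libraries and Egr3 above Fosb in 6, whereas Fosl2 was above Egr1 in 5, Fosl1 above Fos in 5 and Jun above Fosl1 in 4.

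The make-up of each family was also taken per length. Fosl2 accounted for 46.7% to 75.6% of FOS family mRNA in WT and for 53.8% to 86.1% in HOMO. Fosl1 made up 47.2% and 40.5% of it in WT1 and WT2, nearly level with Fosl2, and 6.83% to 20.4% in the other 6 libraries. Fos itself reached 24.5% in WT4 and 24.7% and 22.9% in HOMO3 and HOMO4, and 5.69% to 10.4% elsewhere. Fosb stayed at or under 1.71%.

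Within the JUN family, counted with Jund, Jun held 9.19% to 12.7% of the mRNA in WT and 5.59% to 6.47% in HOMO, ranges that did not overlap. Junb held 73.9% and 74.6% in HOMO3 and HOMO4 and 51.3% to 55.0% in HOMO1 and HOMO2. In WT1 and WT2 it held 60.9% and 61.4%, whereas in WT3 and WT4 Jund was the larger share, with 58.1% and 56.1%. Among Egr1, Egr2 and Egr3, Egr1 held 87.3% to 90.6% in WT and 94.8% to 97.2% in HOMO, again without overlap. Egr2 held most of the remainder in each library but HOMO4, with 6.66% to 9.57% in WT and 2.02% to 2.87% in HOMO. Egr3 held 0.121% to 3.59% in WT and 0.643% to 2.36% in HOMO. In HOMO4 Egr3 (2.35%) was slightly above Egr2 (2.25%). Shares within a family were not tested, and no background of shares in other families was taken. For single genes, 27.3% of those tested had no overlap in CPM between genotypes. A share also moves with the other members of its family, and the CPM of Jun, Egr1 and Egr2 overlapped between WT and HOMO.

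**Figure D4:**
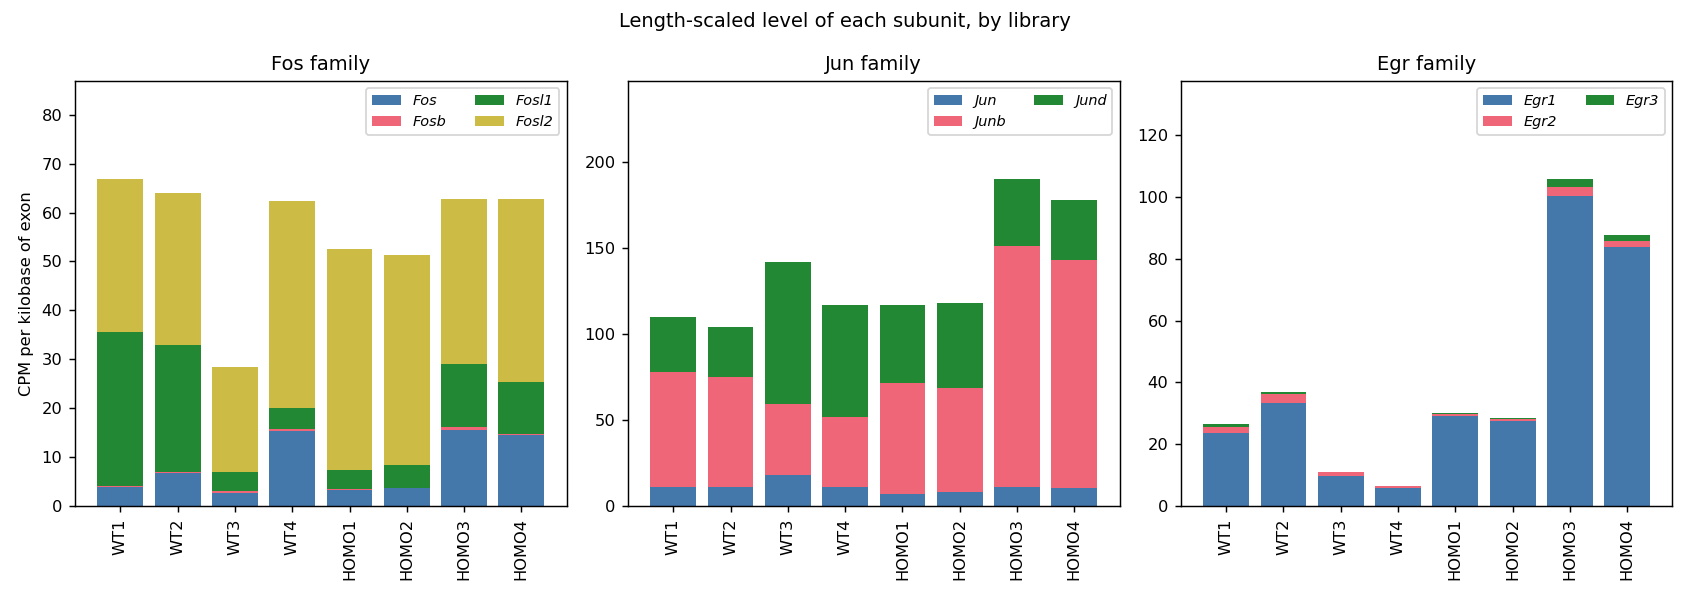
Level of each member of the FOS, JUN and EGR families in each library, stacked by family, in CPM per kilobase of exon. Bar heights are levels and not shares. Fosl1 is highest in WT1 and WT2. Taken as a share of the whole bar, Jun and Egr2 are smaller in each HOMO library than in any WT library.

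By profile over the 8 libraries, measured as the root mean square difference between log2 CPM centred on each gene's mean, no gene of the 10 had another of them among its 3 nearest genes. The closest pair was Junb and Ier2, at 0.40. Nearest to Egr1 was Ank1 at 0.29, followed by Gucy1a1 and Samd5. Among the nearest to Fosl1 were Ccne2 (0.27) and Palb2 (0.28), genes of S phase entry and DNA repair, and Plk4, a centriole kinase, was the third nearest to Egr2. Nearest to Fos was Kdr (0.29), to Junb Gcat (0.17) and to Ier2 Ivl (0.21). For the steady genes Fosl2 and Jun the nearest were Dpp8 (0.06) and Rexo2 (0.06), a closeness that any gene with little variation has. The near-identical libraries give fewer than 8 independent points to these distances.

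Of 30 other immediate early genes, 29 were tested, 2 were higher in HOMO and 2 lower past the test, with a median log2 fold change of -0.12. These calls are 13.8% of the list, near the 12.1% of all tested genes. Klf2, a KLF zinc finger factor, rose from 8.32 ± 2.12 to 34.1 ± 10.6 CPM (SD, n = 4), a log2 fold change of 2.04 with an adjusted p of 0.00469, and its relative Klf4 fell by 1.57 on the log2 scale (adjusted p = 0.0194). Trib1, a pseudokinase, rose by 1.09 on the same scale (adjusted p = 0.0377), and Maff, a small MAF protein, fell by 0.89 (adjusted p = 0.0388). Within HOMO, 24 of the 29 were higher in both HOMO3 and HOMO4 than in HOMO1 and HOMO2, and 8 were so by more than 2-fold, which is 27.6% of the list against 8.78% of tested genes. They included Nr4a1 (2.84), an orphan nuclear receptor, and the feedback genes Zfp36 (2.14) and Dusp1 (1.97), which promote mRNA decay and switch off MAP kinases. Klf2 lies on chromosome 8, with Junb and Ier2, in the median shift given above.

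Among 11 other AP-1 partners 8 were tested. Atf7 rose by 1.02 on the log2 scale (adjusted p = 0.0228) and Mafk fell by 1.19 (adjusted p = 0.00758), and 0 of the 8 were more than 2-fold higher in HOMO3 and HOMO4. Of 12 activators that act upstream (serum response factor, its ternary complex and CREB with their co-activators), 1 passed: Crtc1, a CREB co-activator that also lies on chromosome 8, rose by 1.44 (adjusted p = 0.00873). None of 12 differed more than 2-fold within HOMO in that direction, and the 4 EGR co-regulators, Nab1 and Nab2 among them, had 0 calls. These lists are short, and over all tested genes 12.1% were called and 8.78% differed so within HOMO.

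Genes with described sites for these factors were lower in HOMO wherever they passed the edgeR test. Changes are again on the log2 scale. Of 17 genes with described AP-1 sites 6 fell and 0 rose, with a median log2 fold change of -1.14. Calls were thus 35.3% of the list, beside 6.18% of all tested genes lower and 5.94% higher in HOMO with a median of -0.04. The cytokine Il6 fell by 3.01 (adjusted p = 0.00855) and the cyclin Ccnd1 fell by 1.55 (adjusted p = 0.0376). Of 14 genes with described EGR1 sites 5 fell and 0 rose, which is 35.7% of the list beside the same 6.18% and 5.94% of all tested genes, with a median of -0.46. The adhesion receptor Icam1 fell by 2.99 (adjusted p = 0.0123), the matrix protein Thbs1 fell by 2.83 (adjusted p = 0.00707) and the growth factor Fgf2 fell by 1.24 (adjusted p = 0.0281). Among genes that did not pass, Mmp10 (2.12, edgeR adjusted p = 0.0795) and Col1a1 (0.82, adjusted p = 0.0985) were higher in HOMO. Spp1 (-3.04, adjusted p = 0.0960), which did not pass either, was lower. The study, which used DESeq2, reports Mmp10, Col1a1 and Col1a2 as upregulated, so the lack of rises holds for the edgeR test. The lists were drawn up from general knowledge of these genes, no binding was measured here, and the lists were chosen with earlier results of these data known.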

How the data were processed

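RNA of pFBs was sequenced in 4 WT and 4 HOMO poly-A selected, paired-end libraries. After trimming with fastp and alignment to mm10 with STAR, the authors deposited raw counts per gene from featureCounts. Tool versions, the annotation and the strand setting are not given in the sources used here, and the deposited counts carry a label, "outlierout", that is not explained there. No column was left aside.

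Counts were tested with edgeR 4.0.16 (R 4.3.3): TMM normalization, filterByExpr by genotype, the quasi-likelihood F test over all 8 libraries and Benjamini-Hochberg adjustment over 14150 genes. A gene was called at an adjusted p below 0.05 with a log2 fold change beyond 0.6 in either direction, as in the study's methods. SE is the size of the log2 fold change over the root of its F value. Log2 CPM used a prior count of 2. The exact permutation test planned for genes outside the filter was not needed, since all 10 passed it. Alternatives used DESeq2 1.42.0, limma 3.58.1, other normalizations and filters, and sets of libraries. On simulated counts edgeR recovered 85.2% of the changed genes that it tested, with 4.02% of its calls false, and DESeq2 90.0% of those it tested with 26.2% false. Those counts had 200 changed genes and independent libraries without near-identical pairs, so these rates do not carry over to the real libraries.

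Positions and exon lengths come from GENCODE M21 (GRCm38). Python 3.11.15 with pandas 2.3.3, numpy 2.4.6 and matplotlib 3.10.9 made the tables and plots. Named genes were the 10 members, up to 3 called genes in each direction of each context list, and the 3 genes nearest to each member in profile with the nearest other member; some genes that this rule names are not reported here. A few further genes (Egr4, mouse Igfbp5, genes that share exon bases with a member, and examples of listed genes that did not pass) were picked once their values were known. The members and the lists were chosen with earlier results of these data known. Correlations of deviations between same-numbered WT and HOMO libraries ran from -0.12 to 0.01, so the numbers were not treated as pairs.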

Additional observations from a re-analysis of the deposited data

Results flagged for a closer look

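In 4 of 58 groups of 4 libraries tested, 1 library lay far from the other three of its genotype by Dixon's criterion, and chance alone flags about 1 in 20 groups of independent samples. That rate does not carry over to these groups, since HOMO consists of near-identical pairs and WT1 and WT2 are near-identical, so that WT3 or WT4 is the library most easily set apart. Jun was at 5.84 log2 CPM in WT3 and at 5.08 to 5.13 in the other WT libraries. The remaining flags were in other immediate early genes. Trib1 was at 5.22 log2 CPM in WT3, below 6.55 to 6.66 in the other WT libraries. Klf4 was at 5.808 log2 CPM in WT3, below 7.13 to 7.38. Maff was at 7.294 log2 CPM in WT4, above 6.29 to 6.44. WT3 and WT4 were the WT libraries with the highest macrophage marker sums, and the part of those cells in these values was not tested.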

How the results depend on the processing

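Of the 10 genes, DESeq2 called 1 (Egr1), limma-voom with sample weights 2 (Junb higher, Fosl1 lower), the fit without WT1 and WT2 1 (Egr1) and the fit without HOMO3 and HOMO4 1 (Fosb, lower). No gene of the 10 was called under the other settings, and leaving out each library in turn called 0 to 0 of them. Over all genes 2913 were called with DESeq2 (45.3% of them higher, against 49.0%), 3573 with limma-voom (56.2% higher), 947 with the replicate block, 3271 without WT1 and WT2, 76 without HOMO1 and HOMO2 and 913 without HOMO3 and HOMO4. With near-identical libraries summed edgeR called 0, with 2057 at an unadjusted p under 0.05. Leaving out single libraries gave 507 to 2192, and the count fell by more than 1.5 times without HOMO1 (507), HOMO2 (512), HOMO3 (1040) or HOMO4 (980). The direction turned for Egr2 with chromosome-wise scaling (-0.011), limma-voom (-0.73), the replicate block (-0.014) and without HOMO3 and HOMO4 (-1.17), and its leave-one-out values ran from -0.46 to 0.50. Without HOMO3 and HOMO4 it also turned for Egr3 (-1.19), Fos (-1.04) and Ier2 (-0.020), without HOMO1 and HOMO2 for Fosb (0.49), and without WT1 and WT2 for Fosl1 (0.97). Fewer libraries were fitted in those cases; other causes were not tested. The replicate numbers did not pair the libraries, and the block changed no call of the 10. With the longest transcript as length, Fosl2 was at 52.9 CPM per kilobase in the mean of all libraries, and the order of the 10 was kept. Egr3 and Fosb rest on as few as 1 and 8 counts in a library, which limits their precision.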
